A study of Urocitellus parryii with 24 samples.

Results

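Rewarming is the step by which a hibernating Arctic ground squirrel (AGS, Urocitellus parryii) leaves torpor and returns to a high body temperature (Tb). It was measured here as the difference in liver RNA between early arousal and late torpor. The labels of the samples gave the members. There were 9 of the 24 livers of the series, 4 from early arousal and 5 from late torpor, each from a different animal and each on its own array.

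The late torpor animals were taken on day 8 to 12 of a torpor bout. The early arousal animals were taken 1 to 2 h after Tb had passed 30 °C in a spontaneous arousal. All animals of both groups were hibernating wild-caught AGS, kept in captivity under 4 h of light and 20 h of dark with implanted temperature transmitters, and had no food during hibernation. No genotype, sex or age was given in the sources used here. A second comparison, late arousal (7 to 8 h above 30 °C, 3 animals) against early torpor (day 4 to 6 of a bout, 4 animals), used other animals under the same conditions. The arrays were nylon filters with 9600 spotted AGS cDNA probes, hybridised with 33P-labelled amplified RNA, and all 16 of these arrays were on filters marked A1. Torpid animals were decapitated without anesthesia and aroused animals under isoflurane, so anesthesia and rewarming cannot be told apart. The tissue was whole liver, in which fewer cells of a type and less RNA per cell also cannot be told apart.

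During deep torpor the Tb of an AGS falls to near or below the freezing point of water, and transcription and translation are largely suspended. In an arousal the animal rewarms by its own heat production, first from brown fat and then from shivering muscle, and blood flow to the liver returns. Background knowledge from other cells links rising temperature to heat shock proteins, which refold or hold damaged proteins, and links cooling to cold-inducible RNA-binding proteins, which bind and stabilise mRNA. The fasting liver meanwhile supplies glucose and ketone bodies and secretes most plasma proteins.

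A small set of genes was over-expressed in early arousal, led by the chaperone gene HSPA8 and the transcriptional co-regulator gene IFRD1. A larger set was under-expressed, led by the aldehyde dehydrogenase gene ALDH2, the transcription inhibitor gene ID2, the complement gene C3 and the cold-inducible RNA-binding protein gene CIRBP. A level is given here as the log2 of the background-subtracted signal over the median of its array, and a change as the mean level in early arousal minus that in late torpor, on the same log2 scale. Of 9596 probes tested with limma, 115 (1.2%) had an adjusted p under 0.05. Of these, 5 were higher (0.0521%) and 110 were lower (1.15%) in early arousal. The 1329 probes with a gene symbol contributed 4 higher (0.301%) and 37 lower (2.78%). Every one of these symbols had been selected by the study as different among torpor, arousal and post-reproduction on these same animals, so the higher share among them is not independent evidence. Without regard to the test, all early arousal arrays lay below all late torpor arrays for 438 of the 9511 probes measured on all 9 arrays (4.61%), and above them for 103 (1.08%). With a symbol these were 129 (9.73%) and 39 (2.94%) of 1326.

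The arrays of the groups also differed in brightness. The median signal per array was 100.1 to 131.5 intensity units in early arousal and 72.8 to 91.5 in late torpor, without overlap (exact permutation test, two-sided, p = 0.00794, the smallest p that 4 against 5 arrays allow). The interquartile range of the log2 levels was 1.91 to 2.17 in early arousal and 2.14 to 2.28 in late torpor (exact permutation p = 0.0159). Bright probes were lower in early arousal as a class: with the probes in 10 classes of equal size by mean level, the median change was -0.54 in the brightest class, -0.31 in the next and between -0.17 and 0.05 in the others, against -0.06 over all probes. The brightest class held 66 of the 110 falls, and the brightest 2 classes together held 87. When the levels were quantile-normalised, which gives all arrays the same spread, the median of the brightest class was -0.04, and 2 probes passed the test, HSPA8 as the rise (0.0104%) and the unnamed probe gene6324 as the fall (0.0104%). Division by the 75th percentile in place of the median moved all changes up by 0.15 and left 5 rises (0.0521%) and 8 falls (0.0834%), while the normexp background correction, which models background in place of subtracting it, gave 48 rises (0.5%) and 530 falls (5.52%). Quantile normalization and the normexp correction turned the direction of none of the 5 rises and 110 falls, and the shift under 75th percentile scaling is smaller than any of these changes. Sizes were less stable: after quantile normalization 65 of the 110 falls were more than 1.5 times smaller, and the median of the 110 was -0.69 against -1.06. The part of array brightness in the falls was not tested.

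**Figure D1:**
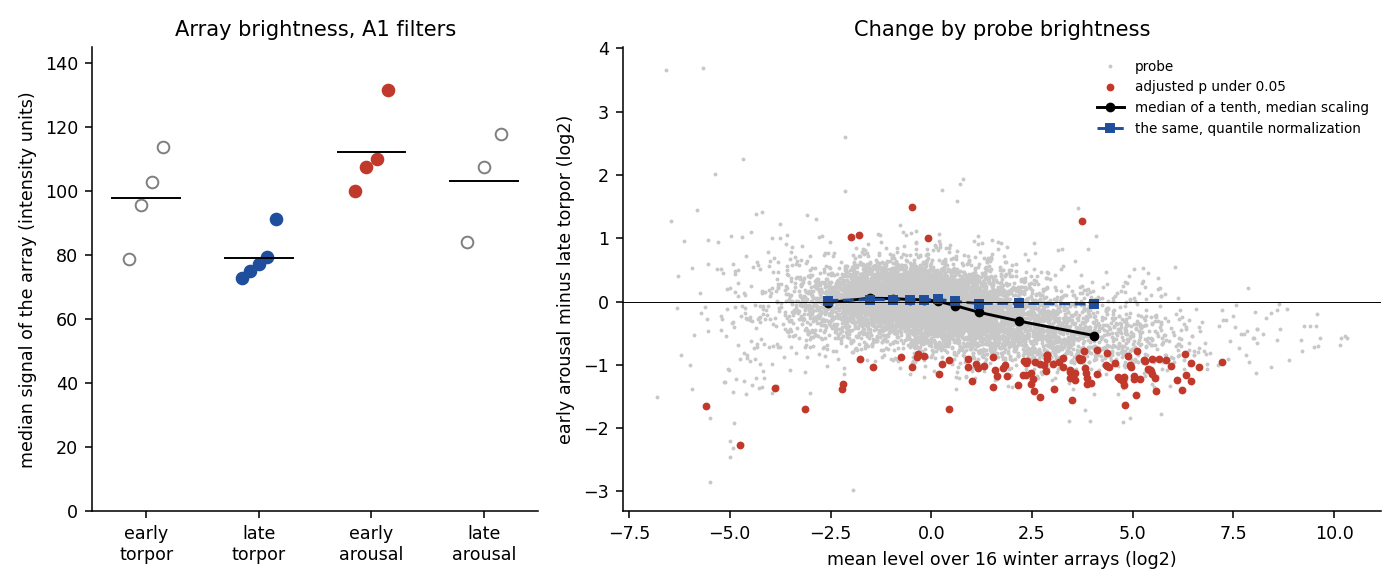
Left, the median signal of each A1 array in intensity units by group, 1 point per array with the group mean as a line. Right, the change of each probe (early arousal minus late torpor, log2) against its mean level over 16 winter arrays (log2), with probes past the test in red and the medians of 10 brightness classes in black (median scaling) and blue (quantile normalization). All 4 early arousal arrays were brighter than all 5 late torpor arrays, and the black line fell to -0.54 among the brightest probes while the blue line ended at -0.04.

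HSPA8 encodes the constitutive cytosolic chaperone Hsc70, which folds new proteins and uncoats clathrin vesicles. Its level was 2.75, 3.07, 3.08, 3.43 and 4.30 on the 5 late torpor arrays and 4.29, 4.45, 4.56 and 5.10 on the 4 early arousal arrays. Only the highest late torpor array reached the range of early arousal, and it lay just above the lowest array of that group. The change was 1.28 (SE 0.26, limma adjusted p = 0.0295), a 2.42-fold rise. It was the one rise that also passed the test after quantile normalization, where it was 1.80 (adjusted p = 0.0066), and after cyclic loess normalization, where it was 1.78 (adjusted p = 0.00717). With 1 array of the fit left out at a time the change stayed between 1.11 and 1.52, and the adjusted p reached 0.0705.

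DNAJB4, an Hsp40 cochaperone that delivers clients to Hsp70 proteins, was at -2.86, -2.80, -2.51, -2.23 and -2.08 in late torpor and at -1.82, -1.56, -1.50 and -1.03 in early arousal. The groups did not overlap. The rise was 1.02 (SE 0.25, limma adjusted p = 0.0499). The probe is dim, over 2 times its background on 3 of the 5 late torpor arrays and all 4 early arousal arrays, and the change was 0.02 with the normexp background correction.

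Other heat shock genes stood higher in early arousal without passing the test. CHORDC1, a cochaperone that binds Hsp90, was at -0.49 to 0.23 in late torpor and at 0.32 to 0.91 in early arousal, a separation without overlap and a change of 0.83 (adjusted p = 0.0824). HSPH1, the Hsp110 nucleotide exchange factor of Hsp70, differed by 0.65 (adjusted p = 0.172). HSP90AB1, the constitutive cytosolic Hsp90, differed by 0.69 (adjusted p = 0.144). Under the normexp correction CHORDC1, HSPH1 and HSP90AB1 passed the test, each with an adjusted p of 0.0313, and under quantile normalization none of them did. HSP90AA1, the stress-inducible Hsp90, was at 0.84 to 1.79 in late torpor and at 1.42, 1.43, 1.57 and 2.97 in early arousal, so that 1 array stood far above the rest, and its change was 0.55 (adjusted p = 0.389). DNAJB9, a cochaperone of the endoplasmic reticulum, differed by 1.08, with early arousal arrays at -0.74, -0.74, 0.90 and 0.96, and did not pass (adjusted p = 0.246).

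As a group, the 24 heat shock and cochaperone genes comprised 2 that rose, none that fell and 22 that did not pass. Of all probes 0.0521% rose, and of the probes with a symbol 0.301%. Their median change was 0.19 against -0.06 over all probes, and 17 of the 24 changes were positive. The median of the group was 0.20 after quantile normalization. Under the normexp correction it was 0.04, against -0.09 over all probes. The lowest change of the group was -0.85, of the mitochondrial cochaperonin gene HSPE1 (adjusted p = 0.153).

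The 18 genes of folding and transport in the endoplasmic reticulum held no member past the test in either direction. Their median change was -0.18, with 12 of 18 negative, and the balance was 9 to 9 under 75th percentile scaling. The highest was SRPR, a subunit of the receptor that docks ribosomes at the membrane, with a change of 0.85 (adjusted p = 0.0953). The lowest was SPCS1, a subunit of the signal peptidase, with a change of -0.78 (adjusted p = 0.154). DERL2, which helps extract misfolded proteins for degradation, differed by 0.58 (adjusted p = 0.300).

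**Figure D2:**
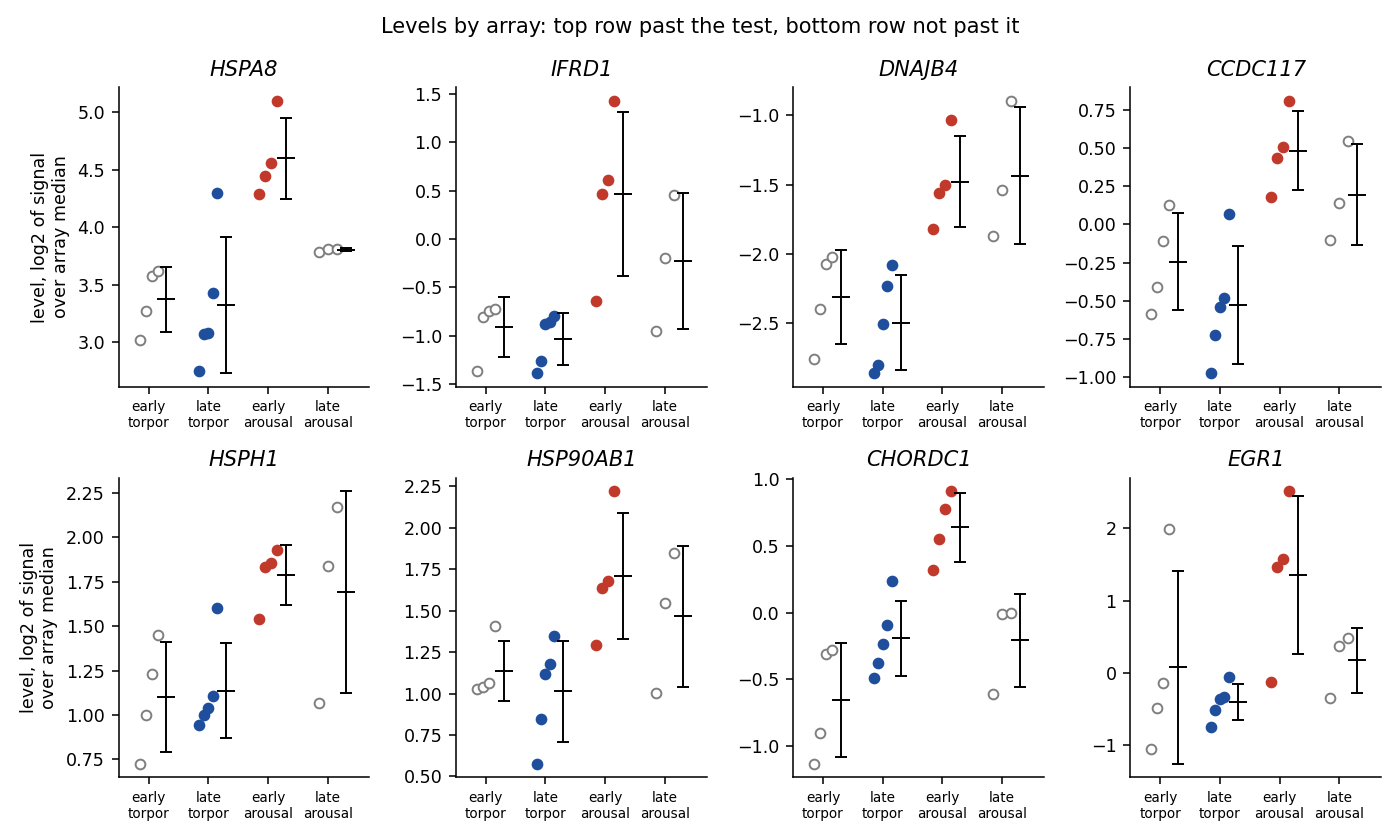
Levels (log2 of signal over array median) of 8 genes on each A1 winter array, with late torpor in blue, early arousal in red, the other groups as open points and the mean ± SD of each group as a bar. HSPA8, IFRD1, DNAJB4 and CCDC117 (top row) passed the test between late torpor and early arousal, and HSPH1, HSP90AB1, CHORDC1 and EGR1 (bottom row) did not.

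IFRD1, a co-regulator of transcription induced by growth factors and stress, had the largest rise of the genes past the test. It was at -1.39, -1.26, -0.88, -0.86 and -0.79 in late torpor and at -0.64, 0.46, 0.61 and 1.43 in early arousal. No early arousal array overlapped late torpor, but they spread widely (SD 0.85 against 0.27). The rise was 1.50 (SE 0.33, limma adjusted p = 0.0340), or 2.83-fold, and 1.51 after quantile normalization, where it did not pass (adjusted p = 0.0916).

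CCDC117 rose by 1.01 (SE 0.23, limma adjusted p = 0.0405). Its arrays ranged from -0.97 to 0.07 in late torpor and from 0.18 to 0.81 in early arousal, without overlap.

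EGR1, an immediate early transcription factor, had the largest difference of the 28 signal-responsive regulators and did not pass the test. Its late torpor arrays were close together, between -0.74 and -0.06, while its early arousal arrays were at -0.13, 1.47, 1.57 and 2.51. The lowest early arousal array thus lay inside late torpor and the other 3 lay far above it. The change was 1.76 (SE 0.50, adjusted p = 0.0902), and the value of 1 early torpor array that enters the shared spread decided the call: without early torpor replicate 4 the same change had an adjusted p of 0.0302. TP53INP1, a p53 target with roles in autophagy, was at 2.31 to 3.50 in late torpor and at 3.86 to 5.10 in early arousal, a difference of 1.48 (adjusted p = 0.0591). C8orf4, a small regulator of Wnt signalling, was at -1.25 to -0.76 in late torpor and at -0.42 to 0.40 in early arousal, a difference of 1.06 (adjusted p = 0.0589). Neither overlapped between the groups, and neither passed.

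In the opposite direction, ID2, which blocks basic helix-loop-helix transcription factors, fell. It was at 2.80, 3.02, 3.21, 3.40 and 3.90 in late torpor and at 1.56, 1.58, 1.63 and 2.26 in early arousal, without overlap. The change was -1.51 (SE 0.28, limma adjusted p = 0.0220). The regulators as a group held 1 rise, 1 fall and 26 genes that did not pass, with a median change of 0.08 (-0.01 under the normexp correction) and 16 of 28 changes positive. SMAD5, a mediator of bone morphogenetic protein signals, differed by 0.61 (adjusted p = 0.262). The thyroid hormone receptor gene THRA, which is in no list, differed by -0.22 (adjusted p = 0.710).

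CIRBP, the cold-inducible RNA-binding protein, had the smallest adjusted p of all genes with a symbol. It was at 2.76, 2.82, 3.07, 3.09 and 3.41 in late torpor and at 1.42, 1.47, 1.88 and 2.14 in early arousal. Every early arousal array lay well below every late torpor array. The fall was 1.30 (change -1.30, SE 0.20, limma adjusted p = 0.0104), or 2.47-fold. CIRBP passed the test whichever single array of the fit was dropped (change between -1.44 and -1.20, adjusted p at most 0.0474) and under 75th percentile scaling, and after quantile normalization the change was -1.0005 (adjusted p = 0.0916).

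The RNA-binding, splicing and export list of 46 genes, of which CIRBP is a member, held 3 falls and no rise. The others were DDX47, a helicase of ribosomal RNA processing (change -1.15, adjusted p = 0.0295), and THRAP3, a splicing and transcription cofactor (change -0.97, adjusted p = 0.0334). The median change of the list was -0.23, with 28 of 46 negative, and it was -0.05 after quantile normalization. TARDBP, a splicing regulator, differed by 0.81 (adjusted p = 0.182) and FUBP1, which binds single-stranded DNA and RNA, by 0.40 (adjusted p = 0.279). The largest change of the list, 2.59 for STRBP (adjusted p = 0.253), rested on a probe that exceeded 2 times its background on none of the late torpor arrays and on 2 of the early arousal arrays.

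**Figure D3:**
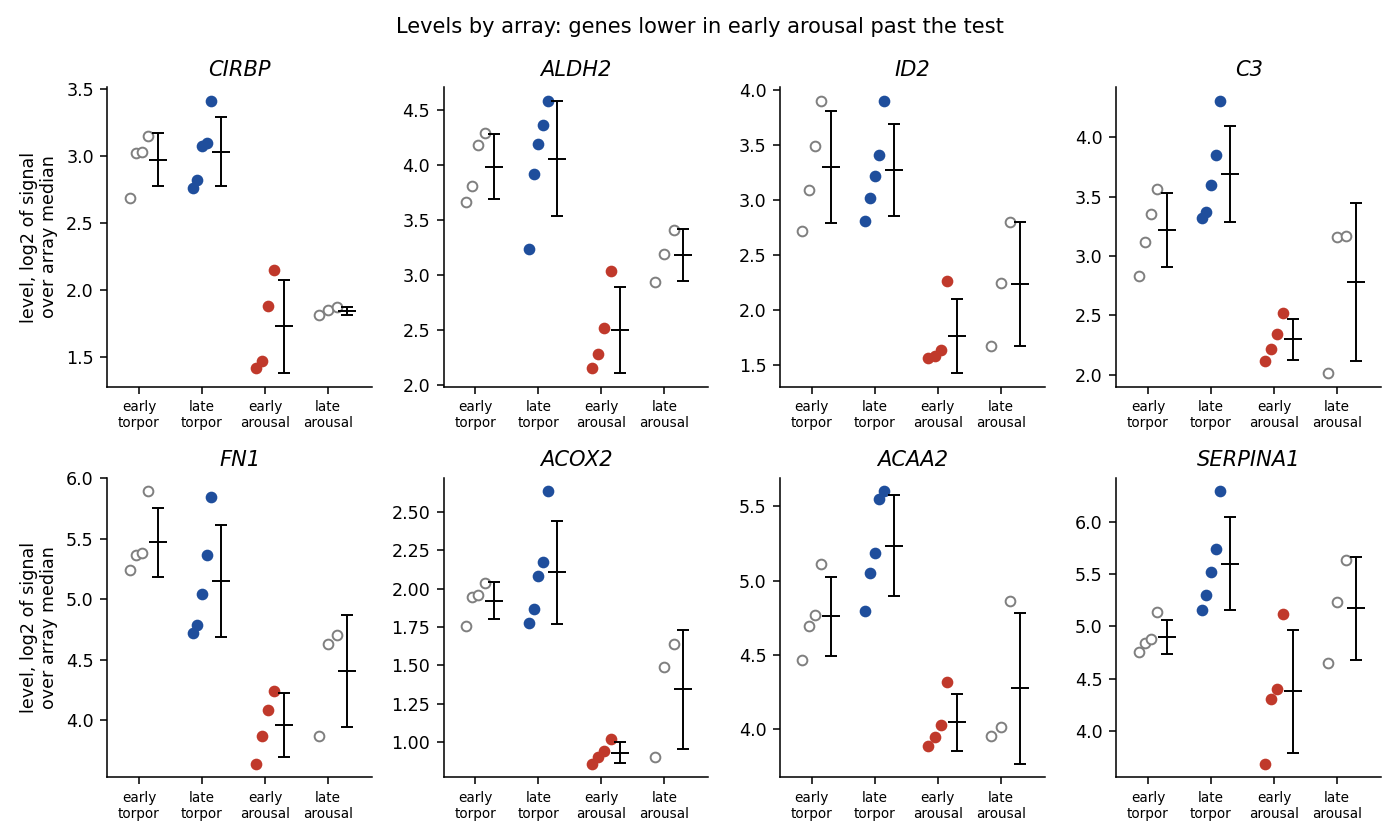
Levels (log2 of signal over array median) of 8 genes that fell from late torpor (blue) to early arousal (red) on each A1 winter array, with the other groups as open points and the mean ± SD of each group as a bar. For all 8 genes every early arousal array lay below every late torpor array. CIRBP ranged from 2.76 to 3.41 in late torpor and from 1.42 to 2.14 in early arousal.

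ALDH2, the mitochondrial enzyme that oxidises acetaldehyde and lipid aldehydes, had the largest fall of the genes with a symbol that passed the test. It was at 3.23, 3.92, 4.19, 4.36 and 4.58 in late torpor and at 2.15, 2.28, 2.51 and 3.04 in early arousal, a change of -1.56 (SE 0.26, limma adjusted p = 0.0124), or 2.95-fold. It passed whichever array was dropped.

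Counts of negative changes in a gene list are to be read against all probes, of which 57.5% were negative with a median of -0.06, and against the 1329 probes with a symbol, of which 867 (65.2%) were negative with a median of -0.19. After quantile normalization 48.7% of all probes were negative with a median of 0.01. Of the 1329 with a symbol, 775 were then negative, with a median of -0.07. Counts of falls past the test in any list are to be read against 1.15% of all probes and 2.78% of those with a symbol. In the brightest class of probes 66 of 960 fell. All 26 genes of fatty acid oxidation and ketogenesis had a negative change, with a median of -0.61. Of these, 4 fell and 22 did not pass. After quantile normalization the median was -0.31 with 23 of 26 negative, and no member passed. BBOX1, the last enzyme of carnitine synthesis, fell by 1.23 on the log2 scale (limma adjusted p = 0.0298). ACAA2, the mitochondrial thiolase that ends the oxidation cycle, was at 4.80 to 5.60 in late torpor and at 3.89 to 4.32 in early arousal, and fell by 1.19 on that scale (adjusted p = 0.0239). ACOX2, a peroxisomal oxidase of branched fatty acids and bile acid precursors, was at 1.78 to 2.63 in late torpor and within 0.86 to 1.02 in early arousal, and fell by 1.18 (adjusted p = 0.0162). None of these 3 genes overlapped between the groups. ACOX2 passed the test whichever array was dropped, and BBOX1 and ACAA2 did not. After quantile normalization the changes were -0.77 for BBOX1, -0.65 for ACAA2 and -0.97 for ACOX2.

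Among 26 genes of the respiratory chain and ATP synthase 24 changes were negative, with a median of -0.44 (-0.24 after quantile normalization, with 21 negative). SDHA and SDHD, the catalytic and a membrane subunit of succinate dehydrogenase, were the 2 that fell, by 0.77 (limma adjusted p = 0.0423) and 0.91 (adjusted p = 0.0499) on the log2 scale. Both calls were close to the threshold, and quantile normalization reduced SDHA to -0.31 (adjusted p = 0.646) and SDHD to -0.52 (adjusted p = 0.412). COQ10B, a coenzyme Q binding protein, went against the list: it was at -1.36 to -0.59 in late torpor and at -0.16 to 0.54 in early arousal, without overlap, but the difference of 1.11 did not pass (adjusted p = 0.145). NNT, the transhydrogenase that supplies mitochondrial NADPH, differed by -0.65 without overlap (adjusted p = 0.117).

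No member of the carbohydrate, lipogenesis, sterol or amino acid lists passed the test. The 22 genes of gluconeogenesis, glycolysis and glycogen had a median change of -0.22, which turned to 0.07 after quantile normalization. PCK1, the rate-limiting enzyme of gluconeogenesis, spanned 7.55 to 9.47 in late torpor and 6.78 to 8.45 in early arousal, and its change of -0.85 was within that spread (adjusted p = 0.497). LDHA, the muscle-type lactate dehydrogenase subunit, spanned 5.98 to 8.26 and 5.92 to 7.26, with a change of -0.46 (adjusted p = 0.745) that turned to 0.04 after quantile normalization. The lowest p of the list belonged to UGP2, which makes UDP-glucose for glycogen (change -0.80, adjusted p = 0.0963), and next came PDK2, a kinase that inhibits pyruvate dehydrogenase (change -0.64, adjusted p = 0.178).

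The 14 lipogenesis genes had a median change of -0.12, which was 0.03 under 75th percentile scaling, where all changes move up, and 0.005 after quantile normalization. THRSP, a lipogenic regulator, was at 5.88 to 6.63 in late torpor and at 4.40 to 5.57 in early arousal, without overlap, and its change of -0.99 did not pass (adjusted p = 0.196). GPD1, which makes the glycerol backbone of triglycerides, differed by -0.76 (adjusted p = 0.261). The 11 sterol genes had a median change of -0.17. INSIG1, which retains the sterol sensor in the endoplasmic reticulum, differed by 0.49 (adjusted p = 0.273), and the sterol synthesis scaffold gene C14orf1 by -0.56 (adjusted p = 0.256).

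The 21 genes of amino acid and nitrogen metabolism had a median change of -0.32, with 17 negative, and -0.05 after quantile normalization. The methyltransferase genes BHMT and BHMT2, which remake methionine, differed by -1.19 (adjusted p = 0.117) and -0.93 (adjusted p = 0.0710). MAT2A, which turns methionine into S-adenosylmethionine, had the highest change of the list, 0.77 (adjusted p = 0.192).

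All 43 genes of xenobiotic and steroid metabolism had a negative change, with a median of -0.65. The count was 42 under 75th percentile scaling and 36 after quantile normalization, where the median was -0.25. Of the 43, 2 passed. FMO4, a flavin monooxygenase, was at 3.71 to 4.80 in late torpor and at 2.46 to 3.49 in early arousal (change -1.31, limma adjusted p = 0.0249). CYP2D6, a cytochrome P450 of drug oxidation, was at 3.92 to 4.80 and at 2.53 to 3.53 (change -1.13, adjusted p = 0.0290). Both were separated without overlap, and after quantile normalization the changes were -0.88 and -0.66. The largest change of the list did not pass: CYP4A11, the fatty acid omega-hydroxylase, was at 5.49 to 7.13 in late torpor and at 3.58 to 5.53 in early arousal, so that the groups overlapped slightly, and the change was -1.78 (SE 0.56, adjusted p = 0.127). GSTM4, a glutathione transferase, had early arousal arrays from 2.67 to 5.56 and a change of -1.37 (adjusted p = 0.148). The median of the mean levels over the list was 3.87, inside the range of the brightest of the 10 classes of probes, whose own median change was -0.54.

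Secreted plasma proteins had the lowest median of the lists of several genes, -0.72, with 28 of 30 changes negative (23 after quantile normalization, median -0.27). The median of their mean levels, 3.83, was also in the brightest class. Of these 5 fell and none rose. C3, the central complement component, was at 3.32, 3.37, 3.60, 3.85 and 4.30 in late torpor and at 2.12, 2.22, 2.35 and 2.52 in early arousal. Every array of early arousal was below late torpor, and the change was -1.39 (SE 0.26, limma adjusted p = 0.0220). FN1, plasma fibronectin, was at 4.72 to 5.85 and at 3.64 to 4.24 (change -1.19, adjusted p = 0.0295). SERPINA1, the antitrypsin of plasma, was at 5.15 to 6.29 in late torpor and at 3.69 to 5.12 in early arousal, where the highest array came close to the lowest of late torpor (change -1.22, adjusted p = 0.0412). CPB2, a carboxypeptidase that slows fibrinolysis, and APOB, the scaffold of very low density lipoproteins, fell by 1.02 (adjusted p = 0.0311) and 0.86 (adjusted p = 0.0412) on the log2 scale. After quantile normalization these changes shrank to -0.997 for C3, -0.67 for FN1, -0.63 for SERPINA1, -0.56 for CPB2 and -0.31 for APOB, and none passed. Other abundant liver products did not pass the test. Albumin, ALB, was at 8.21 to 9.80 in late torpor and at 7.95 to 8.97 in early arousal, with a change of -0.43 (adjusted p = 0.556) that was 0.29 after cyclic loess normalization. TTR, the thyroxine carrier transthyretin, differed by -0.77 with a wide spread (adjusted p = 0.279), and FGB, a fibrinogen chain, by 0.54 (adjusted p = 0.640).

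The 12 antioxidant and metal handling genes had a median change of -0.34 (0.01 after cyclic loess normalization) and none passed. PRDX3, the mitochondrial peroxiredoxin, was at 3.55 to 4.10 in late torpor and at 3.01 to 3.24 in early arousal, without overlap (change -0.76, adjusted p = 0.0506). CAT, the catalase gene, differed by -0.995 (adjusted p = 0.0925).

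Ribosomal proteins and translation factors showed no member past the test, while 32 of 36 changes were negative with a median of -0.46. After quantile normalization the median was -0.11, with 27 negative. The lowest p values were of GNB2L1, a ribosome-bound scaffold (change -0.75, adjusted p = 0.0617), and RPL10, a protein of the large subunit (change -0.94, adjusted p = 0.0729). The 14 ribosome biogenesis genes had a median of 0.14 (-0.14 under the normexp correction) and 1 fall, of RCL1, which acts in ribosomal RNA cleavage (change -1.11, adjusted p = 0.0290, and -0.67 after quantile normalization). The 32 proteasome and ubiquitin genes had a median of -0.09, which was 0.06 under 75th percentile scaling, and none passed. Their lowest p values were of USP30, a mitochondrial deubiquitinase (change -0.66, adjusted p = 0.111), and PSMD12, a subunit of the proteasome lid (change -0.88, adjusted p = 0.133).

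**Figure D4:**
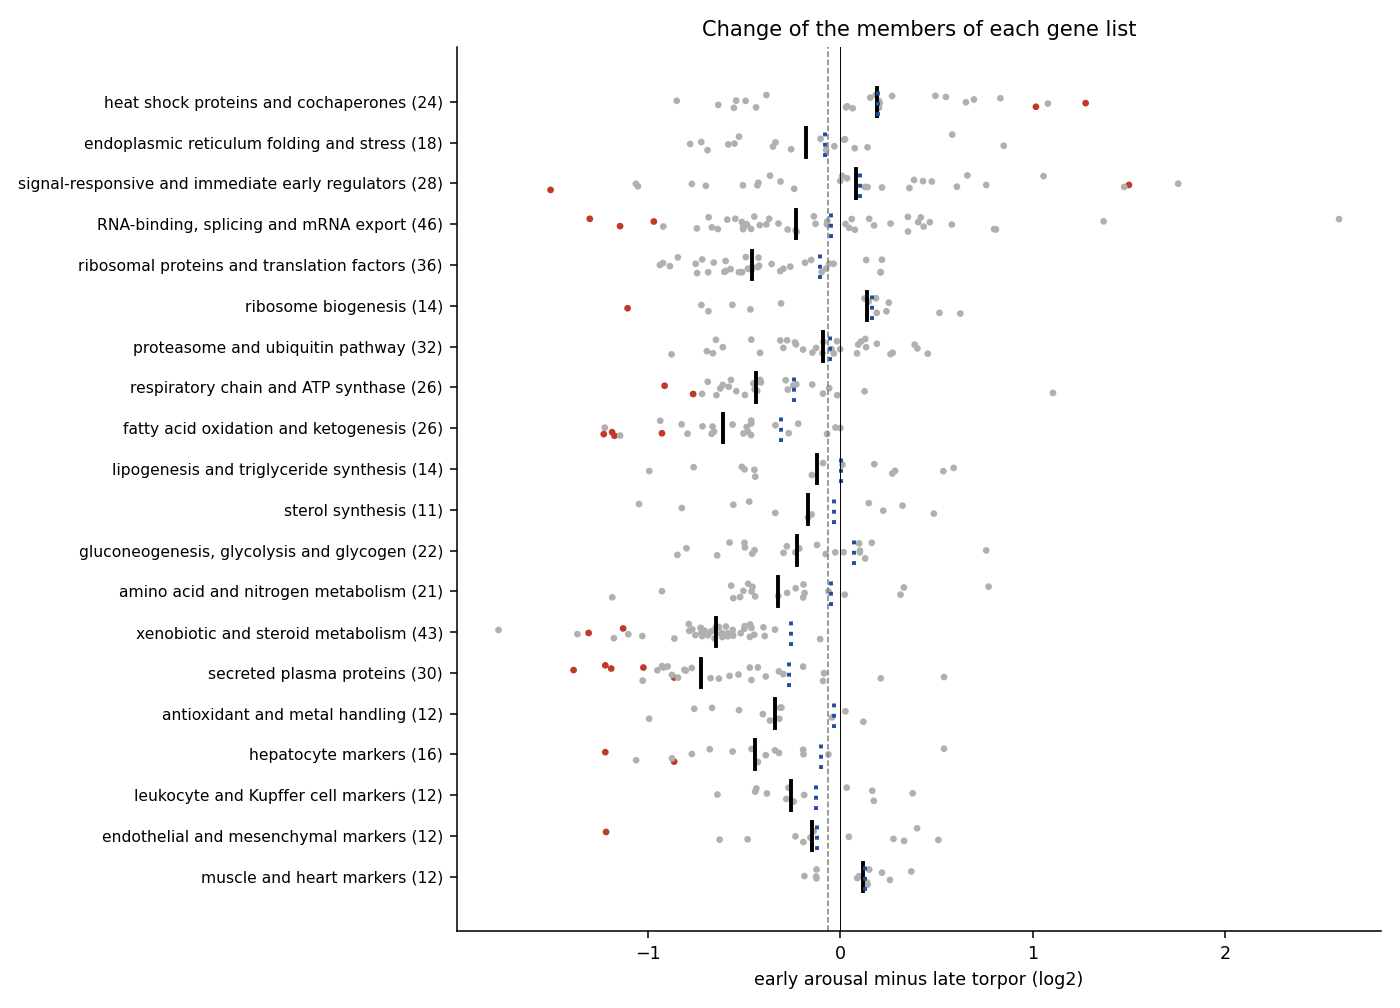
Change (early arousal minus late torpor, log2) of each member of 20 gene lists, with the number of members in brackets, members past the test in red, the list's median as a black bar and its median after quantile normalization as a dotted blue bar. The dashed line is the median of all probes, -0.06. Fatty acid oxidation and xenobiotic metabolism lay wholly at or below 0, and their medians moved from -0.61 to -0.31 and from -0.65 to -0.25 under quantile normalization.

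Markers of cell types were examined beside these results. Of 16 hepatocyte markers, 15 exceeded 2 times their background on all 9 arrays. Each of these arrays had 8781 to 9197 of its 9600 probes over that mark, so this count cannot tell tissues apart. They held 2 falls, SERPINA1 and APOB, and no rise. Their median change was -0.45, which was -0.10 after quantile normalization with 9 of 16 negative. The summed ratio of the 12 leukocyte and Kupffer cell markers was 18.8 to 22.5 in early arousal and 21.1 to 31.8 in late torpor, with a median change of -0.26 and no member past the test. The members with the lowest p were GRN, a secreted growth factor precursor of macrophages, at -0.44 (adjusted p = 0.378), and the Fc receptor gene FCGR3A at -0.64 (adjusted p = 0.398). The summed ratio of the 12 endothelial and mesenchymal markers was 17.6 to 21.1 in early arousal and 27.1 to 32.2 in late torpor, without overlap. That is not particular to this list. The sums of the RNA-binding list also separated (91.8 to 119.5 against 138.9 to 149.9). So did those of the fatty acid oxidation, respiratory chain, xenobiotic, ribosome biogenesis and endoplasmic reticulum lists, each lower in early arousal. The sums of the hepatocyte markers overlapped (557.4 to 881.5 against 710.1 to 1605), as did those of the remaining lists. Of the 12 endothelial and mesenchymal markers, 1 had every early arousal array below every late torpor array. In that list 1 gene fell, CXCL12, a chemokine of stromal and endothelial cells that hepatic cells also make. It was at 2.36, 2.61, 3.11, 3.15 and 3.15 in late torpor and at 1.34, 1.46, 1.64 and 2.18 in early arousal (change -1.22, limma adjusted p = 0.0220). The median of the list was -0.15 (0.001 under 75th percentile scaling). HBA2, a hemoglobin chain and the erythroid marker, differed by -1.12 with overlapping groups (adjusted p = 0.342). Muscle and heart markers had a median of 0.12 (-0.08 under the normexp correction), none of 12 passed, and 10 of 12 exceeded 2 times their background on all 9 arrays in this liver RNA. MYOM2 and TNNT2, structural genes of striated muscle, had the lowest p of that list, with changes of 0.37 (adjusted p = 0.406) and 0.26 (adjusted p = 0.609). The part of any cell type in the falls was not tested.

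The other falls among the largest were in genes of varied function. PDCD4, an inhibitor of the translation helicase eIF4A, was at 2.24 to 2.99 in late torpor and at 0.88 to 1.63 in early arousal (change -1.32, limma adjusted p = 0.0279). ZNF664, a zinc finger gene, was at 1.82 to 2.63 and at 0.19 to 1.56 (change -1.36, adjusted p = 0.0220). SERHL, a serine hydrolase-like gene, was at 4.08 to 4.60 and at 2.84 to 3.53 (change -1.21, adjusted p = 0.0124), and it passed whichever array was dropped. GNAS, the stimulatory G protein subunit that links glucagon and adrenaline receptors to cyclic AMP, was at 3.24 to 4.52 and at 2.56 to 3.13 (change -1.21, adjusted p = 0.0379). SMC5, of the SMC5/6 complex in DNA repair, had a change of -1.29 (adjusted p = 0.0249) from a dim probe that exceeded 2 times its background on all late torpor arrays and on 1 early arousal array. None of these 5 genes overlapped between the groups. After quantile normalization the changes of SERHL and GNAS were -0.76 each, more than 1.5 times smaller, and those of PDCD4, ZNF664 and SMC5 were -1.09, -1.20 and -1.30. Over all 37 genes with a symbol that fell, the changes ran from -1.56 to -0.77, and 33 of the 37 were in the brightest 2 of the 10 classes of probes. Members of these 37 that were picked after their values were seen included LONP2, the peroxisomal Lon protease (change -1.16), and CRLS1, which makes cardiolipin of the inner mitochondrial membrane (change -1.002).

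Of the 110 falls 73 had no symbol here. The probe gene6324 had the smallest adjusted p of all probes: it was at 0.79, 0.88, 1.21, 1.37 and 1.75 in late torpor and at -0.84, -0.49, -0.49 and -0.16 in early arousal. The change was -1.69 (SE 0.22, limma adjusted p = 0.00239), or 3.23-fold, and was -1.64 after quantile normalization (adjusted p = 0.00194). It passed whichever array was dropped. The probe gene5404 was the rise without a symbol (change 1.05, adjusted p = 0.0427), and exceeded 2 times its background on 2 of the 5 late torpor arrays and all 4 early arousal arrays.

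The count of calls depended on single arrays. With all arrays there were 115. Leaving out late torpor replicate 4 or late torpor replicate 5 left 13, early arousal replicate 1 left 15, early arousal replicate 4 left 21, late torpor replicate 3 left 36 and early arousal replicate 2 left 66. Of the 29 genes with a symbol that the naming rule picked and that passed the test, ALDH2, CIRBP, SERHL and ACOX2 passed in every such fit, and the other 25 lost the call in at least 1. No direction of these 29 genes was turned by leaving out an array.

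Whether the same genes moved in other animals was asked with late arousal against early torpor, which shares no array with the rewarming comparison. It had 1 probe past the test (0.0104% of 9592), MAGEE2, at -1.54 (limma adjusted p = 0.0221), which in rewarming differed by -0.39 (adjusted p = 0.393). At an unadjusted p under 0.05 there were 773 probes, against 1454 of 9596 in rewarming. All 5 rises of rewarming were also higher in late arousal than in early torpor, with a median of 0.44, where 47.9% of all probes were higher. Of the 110 falls 79 were also lower, with a median of -0.21, where 52.1% of all probes were negative. However, 87 of the 110 were in the brightest 2 of the 10 classes of probes. In late arousal minus early torpor the medians of those classes were -0.27 (brightest) and -0.13 (next). Whether the falls were lower than other probes of like brightness was not tested. Among the 37 falls with a symbol 33 were also lower, and among the 73 without a symbol 46. The symbols were given only to genes that the study selected as different among states that include these late arousal and early torpor animals. Of all 1329 probes with a symbol, 62.2% were lower in late arousal. The count of 33 among 37 is therefore not independent evidence, and neither are the 4 rises with a symbol.

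CIRBP had nearly the same change in these other animals, -1.13 (SE 0.23, unadjusted p = 8.44e-05, adjusted p = 0.135). ID2 was at -1.06 (adjusted p = 0.414), FN1 at -1.07 (adjusted p = 0.286), CXCL12 at -0.84 (adjusted p = 0.415), THRAP3 at -0.91 (adjusted p = 0.284) and ALDH2 at -0.81 (adjusted p = 0.493). DNAJB4 was at 0.88 (adjusted p = 0.433), IFRD1 at 0.68 (adjusted p = 0.687), CCDC117 at 0.44 (adjusted p = 0.715) and HSPA8 at 0.43 (adjusted p = 0.774). EGR1 was at 0.09 against 1.76 in rewarming, but 1 early torpor array at 1.99, with the others at -1.06 to -0.13, lowered the 0.09. Other genes also differed in size: ZNF664 was at 0.01 against -1.36, SERHL at 0.08 against -1.21 and SERPINA1 at 0.27 against -1.22. None of these genes passed the test of the difference between the comparisons. That test called 1 probe (0.0104% of 9591), gene7962, with -1.64 in rewarming and 2.52 in the other animals. This probe was missing on some arrays of every group. It was measured on 4 late torpor, 3 early arousal, 3 early torpor and 2 late arousal arrays. It did not exceed 2 times its background on any of the 9 rewarming arrays. Across 9591 probes the changes of the comparisons had a Pearson r of 0.25 (0.15 after quantile normalization), given as a description, since probes are not independent replicates and bright probes were also lower in late arousal (median -0.27 in the brightest class).

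**Figure D5:**
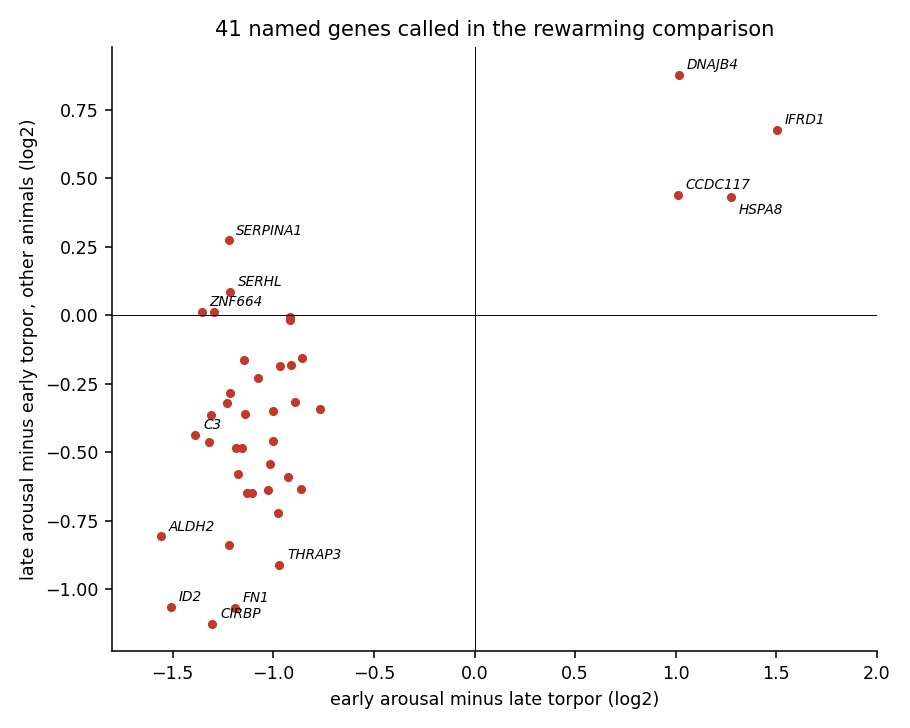
Change in late arousal minus early torpor (log2, vertical) against the change in early arousal minus late torpor (log2, horizontal) for the 41 genes with a symbol past the test in rewarming, 1 point per gene. The 4 rises were positive and 33 of the 37 falls were negative on the vertical axis, with CIRBP at -1.13 and SERPINA1 at 0.27. These genes carry symbols because the study selected them on animals that include those of both axes, so the shared signs are not independent evidence.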

How the data were processed

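Per the file headers, the authors read each filter with ImaGene 6.1.0, and the deposited scanner files give signal and background intensity medians per spot. The deposited table of ratios, background-subtracted signal over its array median, differed from recomputed values by at most 4.98e-07. Per the study's methods, the RNA samples were all processed as 1 batch.

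Here, log2 of that ratio was recomputed (206 of 86400 spots at or below 0 on the 9 rewarming arrays were missing). Symbols were matched to the study's list of selected genes by state means (1329 of 1329 within 1e-04). limma 3.58.1 (R 4.3.3) fitted 16 winter A1 arrays in 4 groups with 12 residual degrees of freedom, without the late arousal array on an A2 filter. Benjamini-Hochberg adjustment covered all probes, and a probe with an adjusted p under 0.05 was called. Replicates are different animals. The number of arrays limits precision. The fit was tested on simulated data.

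The members, the gene lists and tests were chosen with earlier results of these data known. Named genes were the 15 largest called rises and falls with a symbol (4 rises), up to 4 called members per list or else the 2 of lowest p, a list of torpor and arousal genes, and probes without a symbol. TP53INP1, C8orf4, DNAJB9, STRBP, CYP4A11, GSTM4, ALB, TTR, MAT2A, HSPE1, FGB, LONP2 and CRLS1 were added after their values were seen. One gene that the rule picked is not reported here. Alternatives were normexp (offset 50), 75th percentile, quantile and cyclic loess scaling (the last chosen after seeing the data), handling of low spots, the deposited ratios, other sets of arrays, blocks, an analysis of variance over single stages, and leaving out each array. Summer active arrays were used only in alternatives. No probe sequence is shown, and coordinates were not used here.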

Additional observations from a re-analysis of the deposited data

Results flagged for a closer look

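Of 153 groups of arrays checked over 77 named probes, 9 held an array far from the rest, where chance flags about 1 in 20. Early arousal replicate 3 accounted for 4 of them: HSP90AA1 was at 2.97 there against 1.42 to 1.57 on the other early arousal arrays, ID2 at 2.26 against 1.56 to 1.63, PRDX3 at 3.01 against 3.22 to 3.24, and MYOM2 at -2.17 against -1.42 to -1.39. RCL1 was at 2.32 on early arousal replicate 1 against 2.89 to 2.94 on the others. GPD1 was at -0.0743 on early arousal replicate 4 against 0.55 to 0.56. TTR was at 6.92 on early arousal replicate 2 against 5.95 to 6.095. Among late torpor arrays, HSPH1 was at 1.60 on replicate 4 against 0.94 to 1.10, and STRBP, near its background, was at -8.97 on replicate 3 against -2.78 to -1.57 on the others where it was measured. The check covered early arousal and late torpor only, so no early torpor or late arousal array could be flagged. Outside the check, early torpor replicate 4 stood apart for EGR1 (1.99 against -1.06 to -0.13) and COQ10B (-3.21 against -1.30 to -0.75).

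The probe gene7962 differed between the comparisons by -4.16 (limma adjusted p = 0.0202), with -1.64 in early arousal minus late torpor and 2.52 in late arousal minus early torpor. Its signals were near background, and it was missing on some arrays of every group.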

How the results depend on the processing

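The 115 calls of the rewarming comparison became 578 with the normexp background correction (48 higher, 530 lower), 13 with 75th percentile scaling, 2 with quantile normalization, 2 with cyclic loess normalization, 44 with only the 9 rewarming arrays and 64 with all 24 arrays. An analysis of variance over single stages on all 24 arrays, with Storey q and Tukey test, gave 270 (33 higher, 237 lower, 100 of them shared). The methods describe such an analysis only for 3 states, with early and late stages pooled. In the other settings the count lay between 89 and 153. With 1 array left out it ranged from 13 to 154. The 1 call of late arousal against early torpor became 0 with all 24 arrays, 3 with a block for the start of the animal identifiers and 116 by the analysis of variance, and ranged from 0 to 6 with 1 array left out. The 1 call of the difference between comparisons became 0 with the normexp correction, quantile normalization, a floor for low spots, empty spots missing, the deposited ratios, dim probes removed and all 24 arrays with or without the filter block, and 2 with cyclic loess, and ranged from 0 to 1 with 1 array left out. The causes were not tested. Among the named changes, MYOM2 turned to -0.107 with the normexp correction, LDHA to 0.0431 with quantile normalization and 0.202 with cyclic loess, and ALB to 0.295 with cyclic loess. No other change of the 77 named probes reversed in any setting run. HSPE1, FGB, LONP2 and CRLS1 were not among those probes. The difference between comparisons was not run by the analysis of variance. No paired analysis was possible because each array was from a different animal. Signal over background limits the dim probes DNAJB4, gene5404, SMC5, STRBP and gene7962.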
